A study of Danio rerio with 14 samples.

Results

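The zinc finger genes named znf were taken as all genes whose symbol begins with znf followed by a digit. The rule found 93 of the 13830 zebrafish gene symbols in the table of RNA sequencing counts, with the transcript of the highest mean count standing for each gene. Of these genes, 28 carry a 4-digit number, a series of names given in zebrafish, and 65 carry a number under 1000, as many human ZNF genes do. Most zinc finger genes of this kind encode proteins with C2H2 zinc fingers, but the name alone does not set their function. It is also carried by znf185, an actin-associated LIM domain protein in mammals, and by RNA-binding proteins.

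Embryos were untreated wild-type or untreated bmp7-/- homozygotes at 6 hours post fertilization (hpf, early gastrula) and 8 hpf (mid-gastrula), with 2 libraries of 40 embryos in each of these 4 groups. A further 3 libraries of 50 embryos came from bmp7-/- embryos treated at 4 hpf with the translation inhibitor cycloheximide (CHX, 10 µg/ml for 30 minutes). A final 3 came from bmp7-/- embryos given the same CHX treatment and then 10 pg of BMP2/7, a heterodimer of the BMP2 and BMP7 ligands. The CHX groups were collected 90 minutes after the injection step, and no library of CHX embryos injected with a vehicle was analysed. All samples are whole embryos. The bmp7-/- embryos came from homozygous parents, so an effect of the mutation cannot be told apart from a difference between the lines or the parents. The control libraries, labelled wild-type, are headed Aub-/+ in the count table, and the label wild-type (WT) is used here. Aub is part of the name of the bmp7a allele carried by the mutants, so the heading reads as heterozygous. Values of WT over bmp7-/- may thus compare heterozygotes with homozygotes, which the sources used here do not settle. The sources used here do not say whether libraries of a group came from separate crosses, so p-values measure only the spread between these libraries.

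C2H2 zinc fingers are short protein loops that each hold a zinc ion and read a few bases of DNA, and a row of them lets a protein recognise a longer site. Vertebrate genomes hold many such genes, often as tandem clusters of similar copies that differ between species and between strains. In zebrafish the long arm of chromosome 4 is known for such clusters. Other members are conserved single genes with roles in chromatin, splicing, translation and cell division. In the gastrula, BMP ligands form a gradient that patterns ventral tissues, and maternal transcripts are being replaced by those of the embryo's own genome.

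A chromosome was found in the RefSeq table of the assembly GRCz12tu for 87 members by accession and for 2 by symbol. That assembly differs from the build of the counts, so coordinates are not given. Chromosome 4 holds 15 members, 11 of them with a 4-digit number, and chromosome 22 holds 12, of which 8 have a 4-digit number. The other matched members are spread over many chromosomes. Because members of these clusters resemble each other, reads of similar copies may have been split or shared between them. The counts of znf990 lay within 5% of those of LOC100189617 in every library, and these genes cannot be told apart. Library totals ranged from 5034277 counts (bmp7-/- 8 hpf replicate 1) to 23153881. Members together took 0.486 to 0.614% of the raw counts in untreated libraries and 0.812 to 0.847% in the CHX libraries. Levels are given as CPM, read counts divided by each library's effective size (its total times a TMM factor over all 14 libraries), and are compared only within a gene, since they are not corrected for transcript length. The TMM factors were 0.807 to 0.926 in untreated libraries and 1.115 to 1.28 in CHX libraries, and the shares of raw counts leave them out. Without these factors, the median log2 fold change of CHX over untreated bmp7-/- at 6 hpf was 0.64 over members and 0.63 over all genes. The difference in shares is thus not particular to the members. The mutated gene, bmp7a, stood at 60.3 and 63.9 CPM in WT and 1.88 and 3.34 CPM in bmp7-/- at 6 hpf, and at 40.2 to 43.4 against 0.470 to 0.871 CPM at 8 hpf. In the CHX libraries, also labelled bmp7-/-, it stood at 14.8 to 23.2 CPM, and at 22.3 to 29.1 CPM with BMP2/7. These levels lay between those of untreated bmp7-/- and WT, and the CHX group was called higher than untreated bmp7-/- at either stage, so that bmp7a separates the genotypes in the untreated libraries and does not check the genotype of the CHX libraries. bmp7a lies on chromosome 11, which holds 2 members. Of these, znf362a did not pass the genotype test (log2 fold change of WT over bmp7-/- -0.25, standard error (SE) 0.31, adjusted p = 0.567 by edgeR) and znf831 had too few reads to be tested.

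WT and bmp7-/- embryos differed in 24 of the 81 members with enough reads to be tested, with both stages averaged. Of these, 19 were higher in WT and 5 were lower. The 3 largest differences were in genes with a 4-digit number, znf1162, znf1156 and znf1147. Each of these 3 stood far lower in every bmp7-/- library than in any WT library. The test was the edgeR quasi-likelihood test on the mean of both stages, and genes count as called where the p, adjusted by Benjamini and Hochberg's method over all transcripts tested, was under 0.05. Among all 10029 genes tested, 27.8% were called, 16.2% as higher and 11.6% as lower in WT. The members' share of higher calls was 23.5% and that of lower calls 6.17%. The median log2 fold change of WT over bmp7-/- was 0.21 over the members and 0.03 over all genes. It was 0.40 over the 28 members with a 4-digit number, 8 of them called, each higher in WT. It was 0.04 over the 53 tested members with lower numbers, 11 of them called higher and 5 lower. In 22 members every WT library lay above every bmp7-/- library, and in 4 every one lay below, against 12.9% and 9.57% of all genes. At 6 hpf alone 9 members were called, 8 higher and 1 lower in WT, where 15.4% of all genes were called, 9.09% higher and 6.34% lower. At 8 hpf alone 5 members were called, 3 higher and 2 lower, where 3.15% of all genes were called, 2.02% higher and 1.13% lower. The 3 higher members at 8 hpf, znf1162, znf1156 and znf1147, were also called at 6 hpf, and 1.68% of all genes were called higher at both stages. No member was called lower at both, as were 0.848% of all genes. The test treated the libraries as separate, though same-numbered libraries of a genotype deviated together between the stages (correlations 0.473 in WT and 0.347 in bmp7-/-). Its p-values over both stages do not allow for this. Without bmp7-/- 6 hpf replicate 2, 8 hpf replicate 1 or 8 hpf replicate 2, the 24 calls over both stages became 15, 13 and 15. At 6 hpf the 9 calls became 3, 4 and 3 without WT replicate 1, bmp7-/- replicate 1 and bmp7-/- replicate 2, and at 8 hpf the 5 became 3 without any 1 of the 4 libraries of that stage. In bulk RNA, fewer cells that express a gene and less RNA per cell cannot be told apart.

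**Figure D1:**
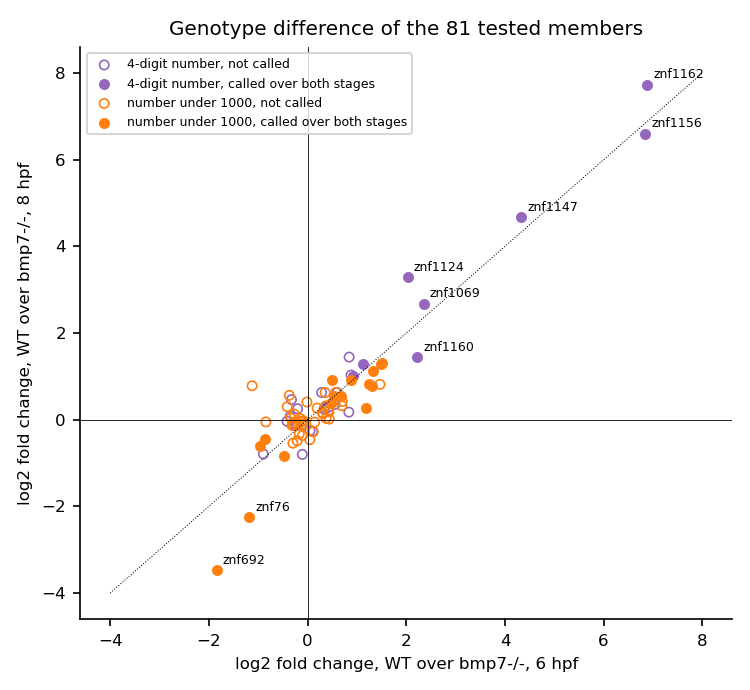
Log2 fold change of WT over bmp7-/- at 6 hpf (x) and 8 hpf (y) for the 81 tested znf genes, filled where called over both stages, with the dotted line marking equal values. znf1162, znf1156 and znf1147 sit alone above 4 on both axes, and all 8 called genes with a 4-digit number lie at values above 0; fitted values of genes with almost no reads in mutants depend on the prior count.

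znf1162, a C2H2 gene on chromosome 22, stood at 11.1 and 12.4 CPM in the WT libraries at 6 hpf and 12.2 and 10.99 CPM at 8 hpf. In bmp7-/- it stood at 0.0902 and 0.0940 CPM at 6 hpf and 0 and 0.0588 CPM at 8 hpf. The groups were far apart, with 780 reads in the 4 WT libraries and 3 in the 4 bmp7-/- libraries. Relative to effective library size, WT held 169 times as much, with a 95% counting interval of 57.6 to 821 (adjusted p = 1.80e-05 by edgeR). The CHX libraries, also labelled bmp7-/-, held 0.214 to 0.902 CPM, below every WT library.

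znf1156, on the same chromosome, stood at 50.0 and 65.7 CPM in WT at 6 hpf and 59.7 and 58.3 CPM at 8 hpf. In bmp7-/- it stood at 0.632 and 0.376 CPM at 6 hpf, and at 0 and 0.822 CPM at 8 hpf. WT libraries were thus high at both stages and bmp7-/- libraries low, and the 0 came from the shallowest library. The log2 fold change over both stages was 6.72 (SE 0.38, adjusted p = 2.58e-05 by edgeR). In the 6 CHX libraries the gene stood at 0.641 to 2.02 CPM.

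znf1147, on chromosome 4, gave 27.9 and 26.7 CPM in WT at 6 hpf and 18.5 and 24.2 CPM at 8 hpf. bmp7-/- libraries gave 1.53 and 1.22 CPM at 6 hpf and 0.436 and 0.999 CPM at 8 hpf. The lowest WT library stood far above the highest bmp7-/- library, and the CHX libraries, at 1.57 to 3.61 CPM, also stayed below WT. This was a log2 fold change of 4.50 (SE 0.28, adjusted p = 3.62e-05 by edgeR). Its neighbours in the order of members along chromosome 4, znf1119 and znf973, did not pass the test, at log2 values of -0.09 (SE 0.16) and 0.20 (SE 0.23). They are not adjacent genes: among the protein-coding genes of that chromosome znf1119 ranks 647, znf1147 709 and znf973 920.

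znf1069 (chromosome 4) stood at 5.39 and 2.98 CPM in WT at 6 hpf and 4.23 and 4.36 CPM at 8 hpf, against 0.993, 0.658, 0 and 0.999 CPM in the same order in bmp7-/-. znf1160 (chromosome 22) stood at 11.03, 12.8, 13.0 and 6.77 CPM in WT and 1.90, 3.29, 1.52 and 5.11 CPM in bmp7-/-. In neither gene did the genotypes overlap, though for znf1160 the highest bmp7-/- library came close to the lowest WT library. Their log2 fold changes were 2.52 (SE 0.53, adjusted p = 0.00974 by edgeR) and 1.84 (SE 0.39, adjusted p = 0.00976). znf1051, with no chromosome found, was also higher in WT, at a log2 fold change of 1.20 (SE 0.27, adjusted p = 0.0116 by edgeR). That call was lost without bmp7-/- 8 hpf replicate 2 (adjusted p = 0.0562 by edgeR). znf1124 was called at 2.66 (SE 0.70, adjusted p = 0.0228 by edgeR), and is named after its values were seen because its WT libraries disagreed. It stood at 11.4 and 1.89 CPM in WT at 6 hpf and 10.0 and 2.08 CPM at 8 hpf, so that replicate 1 was high and replicate 2 low at both stages. In bmp7-/- it stood at 2.08, 1.22, 0.653 and 0.588 CPM, and at 6 hpf the genotypes overlapped. The call was lost without either WT replicate 1, bmp7-/- 6 hpf replicate 2 or either bmp7-/- 8 hpf library (adjusted p = 0.0649 to 0.0978 by edgeR).

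The 12 members on chromosome 22 fell in the order znf76, znf45l, znf1160, znf1174, znf1156, znf1161, znf1157, znf1003, znf1162, znf1173, znf983 and znf990. Of these, 5 were called higher in WT and 1 lower, beside 16.2% and 11.6% of all genes. In this order, called members stood next to each other as well as next to members that were not called. Members next to each other here are not adjacent genes. Among the protein-coding genes of the chromosome, znf76, znf45l and znf1160 rank 50, 85 and 107, and znf1003 and znf1162 rank 159 and 167. The first in this order, znf76 (lower in WT), znf45l and znf1160, were all called. znf1174, between the called znf1160 and znf1156, stood at a log2 fold change of -0.08 (SE 0.17). znf1162 had the called znf1003 on one side, at 0.97 (SE 0.23), and znf1173 on the other, at 0.03 (SE 0.23). The median was 0.48 over these 12 and 0.07 over the 15 on chromosome 4, of which 2 were called higher and 1 lower. These counts are small, and nothing particular to either chromosome was tested. The order and these values are descriptions of members on a different assembly, and near copies there may share reads.

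**Figure D2:**
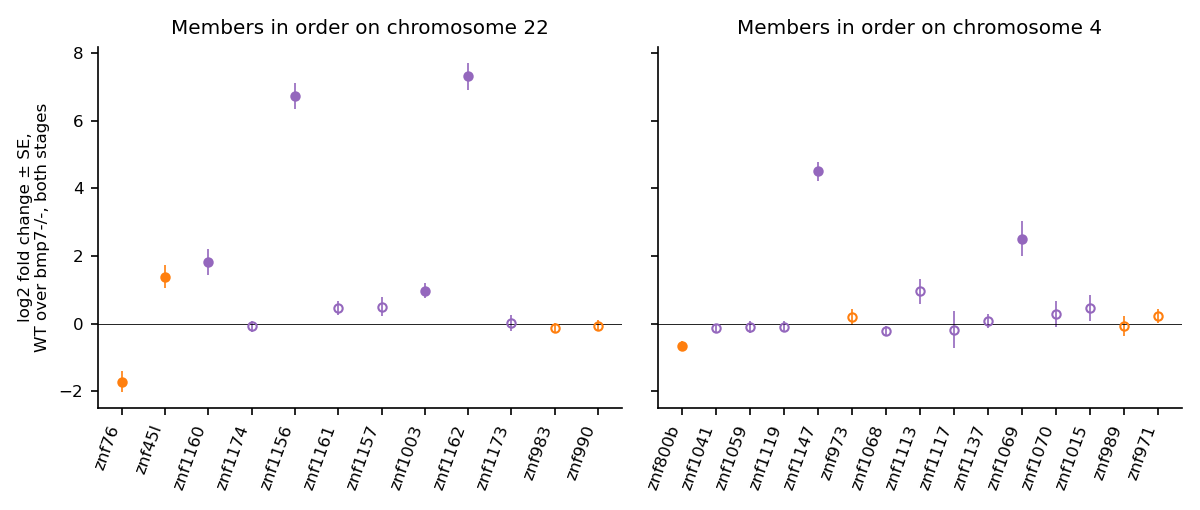
Log2 fold change of WT over bmp7-/- over both stages with its SE (y) for the znf genes in their order along chromosomes 22 and 4 of GRCz12tu (x, not to scale), filled where called, purple for a 4-digit number and orange for a lower one. In this order, called genes such as znf1156 and znf1162 stand beside genes near 0 such as znf1174 and znf1173. The called znf76, znf45l and znf1160 stand side by side in it, as do znf1003 and znf1162, though other genes lie between them on the chromosome.

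On chromosome 22, znf76 and znf45l, the members with lower numbers that were called, moved in opposite directions. znf76, a relative of the transcriptional activator ZNF143 in mammals, stood at 2.52, 3.13, 1.28 and 1.88 CPM in WT at 6 and 8 hpf and at 4.69, 8.37, 6.97 and 7.87 CPM in bmp7-/-. Every WT library was lower than every bmp7-/- library, and the log2 fold change was -1.71 (SE 0.30, adjusted p = 0.00503 by edgeR). znf45l stood at 39.4, 21.6, 33.4 and 12.6 CPM in WT and 12.5, 9.78, 7.62 and 10.8 CPM in bmp7-/-. Here WT replicate 1 was high at both stages and WT 8 hpf replicate 2 only just cleared the bmp7-/- libraries. Over both stages the log2 fold change was 1.39 (SE 0.34, adjusted p = 0.0173 by edgeR). Leaving out WT 8 hpf replicate 1, bmp7-/- 6 hpf replicate 2 or bmp7-/- 8 hpf replicate 1 ended the call (adjusted p = 0.0518, 0.0628 and 0.0690 by edgeR).

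Among the conserved members higher in WT were both znf609 genes and znf618. The mammalian relative of znf609 acts with Integrator and the cohesin loader, and that of znf618 binds hydroxymethylated DNA. znf609a stood at 30.3, 16.4, 27.7 and 15.6 CPM in WT and 9.57, 7.15, 8.06 and 9.16 CPM in bmp7-/-, a log2 fold change of 1.41 (SE 0.28, adjusted p = 0.00833 by edgeR). znf609b stood at 146, 124.9, 164 and 124.3 CPM in WT and 69.3, 48.0, 76.2 and 85.6 CPM in bmp7-/-, a log2 fold change of 1.03 (SE 0.16, adjusted p = 0.00362 by edgeR). Both paralogs were higher in all 4 WT libraries than in any bmp7-/- library. znf618 stood at 62.0, 35.9, 61.1 and 37.5 CPM in WT and 23.1, 16.5, 23.7 and 21.5 CPM in bmp7-/-, with no overlap and WT replicate 1 the higher of each pair. Its log2 fold change was 1.23 (SE 0.24, adjusted p = 0.00799 by edgeR). znf236, matched to a transcribed pseudogene in the RefSeq table, was called at 1.04 (SE 0.32, adjusted p = 0.0389 by edgeR), but DESeq2 did not call it (adjusted p = 0.0572). The call also ended without any 1 of the libraries other than WT 8 hpf replicate 2 (adjusted p = 0.0620 to 0.124 by edgeR). The remaining called members higher in WT were znf1003, znf143a, znf217, znf438, znf574, znf592 and znf687a, at log2 fold changes of 0.42 to 0.97. Each of these 7 calls was lost without at least 1 library. That of znf1003 was lost without bmp7-/- 6 hpf replicate 2 or 8 hpf replicate 1 (adjusted p = 0.0506 and 0.0604 by edgeR), and that of znf217 without either bmp7-/- 8 hpf library (adjusted p = 0.0634 and 0.0633). znf143a and znf438 each lost it without any 1 of 7 libraries (adjusted p up to 0.118 and 0.130 by edgeR). znf574 lost it without any 1 of 6 libraries (up to 0.106), and znf687a without any 1 of 7 and with no filter on low counts (up to 0.126). znf592 (adjusted p = 0.0496 by edgeR) lost it at the threshold of 0.01 and in 13 of the 17 other alternatives. These 13 were DESeq2 (0.0607), RLE factors, no filter, summed transcripts, all 14 libraries in the fit and leaving out any 1 library (adjusted p up to 0.151 by edgeR). The 7 include ZNF143 and ZNF217 relatives, a promoter-binding activator and a corepressor partner in mammals, and relatives of ZNF592 and ZNF687, which share a chromatin complex there.

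**Figure D3:**
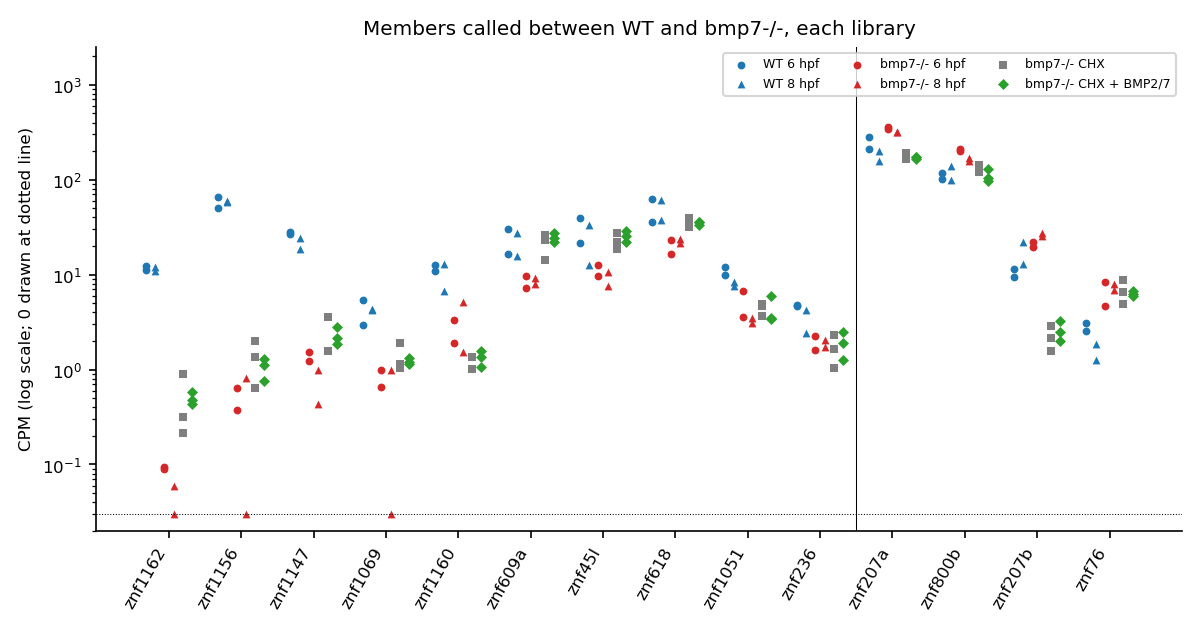
CPM on a log scale (y) in each of the 14 libraries for the 14 znf genes named for the genotype difference (x), the 10 higher in WT left of the line and the 4 lower in WT right of it, with values of 0 drawn at the dotted line. WT libraries of znf1162, znf1156 and znf1147 lie above all 10 libraries labelled bmp7-/-, CHX-treated ones included, whereas CHX libraries of znf609a, znf45l and znf618 lie above the untreated bmp7-/- ones.

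Lower in WT were both znf207 genes, znf800b, znf76 and znf692. The mammalian ZNF207 protein, BuGZ, binds the checkpoint protein Bub3 and microtubules in mitosis. znf207a stood at 282, 212, 201 and 158 CPM in WT and 343, 356, 317 and 317 CPM in bmp7-/-, and znf207b at 9.41, 11.6, 21.9 and 12.9 CPM in WT and 19.5, 22.1, 27.2 and 25.3 CPM in bmp7-/-. At each stage the WT libraries of both genes lay below those of bmp7-/-. For znf207b WT 8 hpf replicate 1 reached above bmp7-/- 6 hpf replicate 1. The log2 fold changes were -0.65 (SE 0.14, adjusted p = 0.0103 by edgeR) and -0.78 (SE 0.22, adjusted p = 0.0278). The call of znf207b was lost without WT 6 hpf replicate 1, WT 8 hpf replicate 2, bmp7-/- 6 hpf replicate 2 or either bmp7-/- 8 hpf library (adjusted p = 0.0600 to 0.0893 by edgeR). znf800b stood at 102, 118.5, 99.8 and 140 CPM in WT and 210, 200, 168 and 158 CPM in bmp7-/-, without overlap, at a log2 fold change of -0.66 (SE 0.14, adjusted p = 0.0107 by edgeR). znf692 had too few reads for the naming rule and is given after its values were seen: it had 10 and 6 reads in WT at 6 and 8 hpf, and 22 and 51 in bmp7-/-. Its log2 fold change over both stages was -2.65 (SE 0.48, adjusted p = 0.00544 by edgeR).

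Maternal transcripts moved with the genotype. The summed level of buc, zar1, h1m, zp3 and dazl was 113.6 to 159 CPM in WT and 223 to 365 CPM in bmp7-/- at 6 hpf, and 62.2 to 92.2 against 145 to 147 CPM at 8 hpf. Of these 5 genes 2 were called lower in WT. Markers of some embryonic tissues moved as well, and those of others did not. Of the neural ectoderm genes sox3, sox2 and zic2a 0 of 3 were called, and of the endoderm genes sox32, sox17 and gata5 0 of 3. Of the tested genes of the enveloping layer, the outer cell sheet, 0 of 3 were called. Of the mesoderm genes ta, tbx16, tbx6 and msgn1, 1 of 4 was called higher in WT. Of the germ plasm genes nanos3, ddx4, dnd1 and tdrd7a, 1 of 4 was called lower. The sum of the non-neural ectoderm genes gata2a, foxi1, tp63, tfap2c and krt8 was 413.8 to 601.6 CPM in WT and 169 to 218 CPM in bmp7-/- at 6 hpf, and 709 to 764 against 90.1 to 113.6 CPM at 8 hpf, and 4 of the 5 were called higher in WT. The sum of the organizer genes chrd and noto was 537 to 657 against 592 to 890 CPM at 6 hpf, where the genotypes overlapped. At 8 hpf it was 655 to 828 against 1408 to 1570 CPM, and 1 of 2 was called lower in WT. The part of these differences in the znf values was not tested. The difference between the stages in the genotype effect (an interaction term) called 0 of 81 members with edgeR and 0 with DESeq2, and 0 members had an unadjusted p under 0.05, the smallest being 0.0671. The edgeR test also called 0 of all 10029 genes, so the lack of calls is not particular to the members. In 3 of the 81 members the genotypes were in opposite order at 6 and 8 hpf without overlap at either, as in 2.81% of all genes. Among the 90 genes of other zinc finger families (zbtb, zfp, klf, zic, prdm, sall, ikzf, egr, gli, snai and sp), 64 were tested, and 14 were higher and 8 lower in WT. These calls made up 34.4% of those tested, beside 29.6% of the znf members and 27.8% of all genes.

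Stage differences were fewer. Between 6 and 8 hpf, over both genotypes, 10 of 81 members were called, 3 higher and 7 lower at 8 hpf, where 18.8% of all genes were called, 9.11% higher and 9.68% lower. The count became 6 without bmp7-/- 6 hpf replicate 1 and 3 without bmp7-/- 8 hpf replicate 2. znf710a stood at 11.03 and 4.96 CPM in WT at 6 hpf and 98.9 and 18.9 CPM at 8 hpf. In bmp7-/- it stood at 3.61 and 2.26 CPM and then 25.3 and 40.8 CPM. All 8 hpf libraries were above all 6 hpf libraries, although the WT 8 hpf pair disagreed by 2.39 on the log2 scale. This was the widest gap in that group among members with at least 20 reads in it. The log2 fold change of 8 over 6 hpf was 3.22 (SE 0.52, adjusted p = 0.00443 by edgeR). znf438 was higher at 8 hpf as well, at 11.2 and 11.2 against 18.3 and 21.2 CPM in WT and 4.42 and 5.55 against 12.4 and 19.8 CPM in bmp7-/-. Its log2 fold change was 1.29 (SE 0.22, adjusted p = 0.00548 by edgeR). znf503, also called Nlz2, with roles in hindbrain and eye development in zebrafish, was called higher at 0.81 (SE 0.19, adjusted p = 0.0212 by edgeR), a call that ended without WT 8 hpf replicate 2, bmp7-/- 6 hpf replicate 1 or either bmp7-/- 8 hpf library (adjusted p = 0.0619 to 0.0851).

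Lower at 8 hpf were znf326, znf1137, znf576.2, znf185, znf1041, znf346 and znf281b. znf326, whose mammalian relative couples transcription elongation to splicing, stood at 6.95 and 7.69 CPM in WT at 6 hpf and 2.55 and 3.15 CPM at 8 hpf, and at 11.5 and 7.80 then 2.18 and 1.76 CPM in bmp7-/-. All 4 libraries at 8 hpf were low and all 4 at 6 hpf were higher. The log2 fold change was -1.81 (SE 0.26, adjusted p = 0.00273 by edgeR). The other 6 had log2 fold changes between -0.83 and -0.47. All 6 lost the call without bmp7-/- 8 hpf replicate 2, with adjusted p = 0.116 for znf1137, 0.137 for znf185, 0.0537 for znf576.2, 0.0592 for znf1041, 0.0716 for znf346 and 0.161 for znf281b by edgeR. znf1137 and znf185 also lost it without WT 6 hpf replicate 1, bmp7-/- 6 hpf replicate 1 or either WT 8 hpf library, and znf185 without bmp7-/- 8 hpf replicate 1 (adjusted p = 0.0534 to 0.103). znf281b also lost it under scaling by library size alone (0.0678) and without any 1 of the other libraries except WT 6 hpf replicate 2 and bmp7-/- 6 hpf replicate 2 (adjusted p = 0.0770 to 0.118 by edgeR).

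CHX-treated bmp7-/- embryos differed from untreated ones in about as many members in each direction. Against 6 hpf mutants 46 of 81 members were called, 22 higher and 24 lower under CHX, where 62.5% of all genes were called, 32.4% higher and 30.1% lower. Against 8 hpf mutants 45 were called, 24 higher and 21 lower, where 68.6% of all genes were called, 35.6% higher and 33% lower. Called the same way in both were 20 higher members (26.9% of all genes) and 17 lower ones (25.3%). Both comparisons use the same CHX libraries. By the treatment times, CHX embryos were collected at about the age of the 6 hpf mutants, whereas the 8 hpf mutants were older. The labels give the stage of the CHX samples as 4 hpf, the time of the CHX treatment, so their age at collection is inferred here. No untreated embryos shared their exact age and handling. CHX thus cannot be told apart from handling, the library series or a remaining difference in age or stage. Scaling by library size alone moved the split to 39 higher and 12 lower members against 6 hpf, and to 35 and 15 against 8 hpf, and moved the median log2 value of all genes to 0.63 and 0.52, from 0.09 and 0.07. The sign turned under that scaling for znf1068 against 6 hpf and for znf1001, znf598 and znf800b against 8 hpf, and for no other called member. By name, 9 of 27 members with a 4-digit number were called against 6 hpf, 6 higher and 3 lower. Of the 54 with lower numbers, 16 were higher and 21 lower.

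Of the tested members, znf750 fell furthest. Its human relative drives late differentiation of the epidermis under the transcription factor p63. It stood at 46.7 and 43.3 CPM in bmp7-/- at 6 hpf and 43.8 and 44.4 CPM at 8 hpf, and at 0, 0.0530 and 0.0792 CPM in the CHX libraries. With 2 reads under CHX against 978 at 6 hpf, the level was 1025 times lower, with a 95% counting interval of 283 to 8476. With BMP2/7 all 3 libraries had 0 reads, at least 739-fold lower than at 6 hpf when 3 reads are allowed over the group. In the WT libraries the gene stood at 24.6 to 60.3 CPM, and the genotype test was not passed.

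Keratin and claudin markers of the enveloping layer, the outermost cell sheet of the embryo, fell in the same libraries. The sum of krt4, krt5, cldne and krt92 was 7145 and 7497 CPM in bmp7-/- at 6 hpf and 8634 and 7528 CPM at 8 hpf, but 550, 1133 and 422 CPM under CHX and 440, 675 and 262 CPM with BMP2/7. krt5 stood below 1 CPM in every library, and the other 3 genes were each called lower. Their part in the change of znf750 was not tested. znf185 was low in the same libraries, at 625 and 435 CPM at 6 hpf and 59.3, 235 and 33.6 CPM under CHX, then 54.7, 149 and 29.0 CPM with BMP2/7. In both CHX groups replicate 2 was the highest of the 3 for znf185 and for the marker sum. In WT at both stages and in bmp7-/- at 6 hpf the orders were opposite, with replicate 1 higher for znf185 and replicate 2 for the sum. In bmp7-/- at 8 hpf replicate 1 was higher for both. The part of the enveloping layer in the znf185 values was not tested. The log2 fold change of znf185 over 6 hpf was -2.30 (SE 0.74, adjusted p = 0.0190 by edgeR), and it was not called against 8 hpf. The call was lost without bmp7-/- 6 hpf replicate 1 or CHX replicate 1 (adjusted p = 0.0831 and 0.0672 by edgeR).

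**Figure D4:**
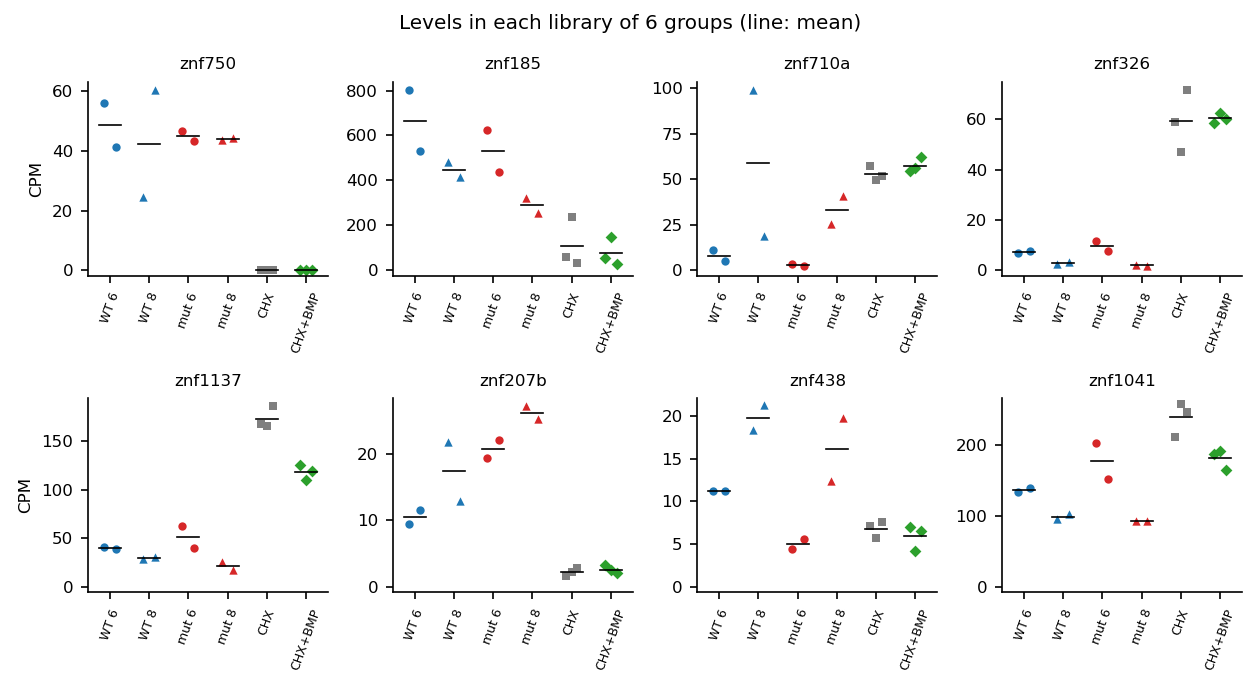
CPM (y, linear from 0) in each library of the 6 groups (x; mut is bmp7-/-, numbers are hpf, lines are group means) for 8 znf genes. znf750 is at or near 0 in all 6 CHX libraries, znf326 and znf1137 are highest there, and znf710a under CHX lies at 49.5 to 62.0 CPM, above every untreated bmp7-/- library.

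Several members with a number under 1000 were lower under CHX, while others with such numbers were higher. znf207b stood at 19.5 and 22.1 CPM at 6 hpf and 27.2 and 25.3 CPM at 8 hpf, but at 1.57, 2.17 and 2.85 CPM under CHX. Its log2 fold change over 6 hpf was -3.26 (SE 0.28, adjusted p = 4.69e-06 by edgeR). Its paralog znf207a fell less, from 343 and 356 CPM at 6 hpf to 172, 191 and 165 CPM (log2 -1.003, SE 0.11, adjusted p = 2.60e-05 by edgeR). CHX libraries were below untreated ones for both. znf592 stood at 4.24 and 5.92 CPM at 6 hpf and 1.07, 1.01 and 0.634 CPM under CHX, and znf410, whose mammalian relative activates the chromatin remodeller gene CHD4, at 8.93 and 14.01 against 2.71, 2.65 and 2.22 CPM. Neither gene overlapped between the groups. The log2 fold changes were -2.48 (SE 0.42, adjusted p = 0.000478 by edgeR) and -2.19 (SE 0.27, adjusted p = 5.28e-05). znf384l, znf414, znf513a, znf740b, znf148 and znf292a had log2 fold changes between -1.43 and -1.12 over 6 hpf.
They include znf148, a GC-box binding factor in mammals, whose call was lost under scaling by library size alone (adjusted p = 0.101 by edgeR), and znf513a, a relative of a human retinal disease gene.

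Among the members named by the rule as higher under CHX, znf710a, znf395b and znf326 changed most against 6 hpf mutants. The sparse znf804a, outside this rule, is given below. znf710a stood at 3.61 and 2.26 CPM at 6 hpf and at 57.4, 49.5 and 51.5 CPM under CHX, a log2 fold change of 4.15 (SE 0.29, adjusted p = 1.84e-06 by edgeR). Against 8 hpf mutants, at 25.3 and 40.8 CPM, the difference was 0.60 (SE 0.24, adjusted p = 0.0399), so the size of this change depended on the stage it was set against. The call against 8 hpf was lost at the threshold of 0.01 and in 9 of the 20 other alternatives. Among these were the replicate block (adjusted p = 0.0624 by edgeR) and leaving out bmp7-/- 8 hpf replicate 1 (0.313) or any 1 of the 3 CHX libraries (0.0568 to 0.100). The reverse held for znf326, at 59.1, 47.0 and 71.6 CPM under CHX, which was 2.61 above 6 hpf (SE 0.24, adjusted p = 8.22e-06 by edgeR) and 4.90 above 8 hpf (SE 0.30, adjusted p = 4.26e-07). znf395b stood at 2.26 and 2.54 CPM at 6 hpf and 19.5, 11.4 and 18.0 CPM under CHX, with no overlap. Its log2 fold change was 2.75 (SE 0.39, adjusted p = 0.000136 by edgeR). Its paralog znf395a, at 435 and 414 CPM at 6 hpf and 465, 434 and 522 CPM under CHX, was called only against 8 hpf. znf1137 stood at 62.5 and 39.5 CPM at 6 hpf and 167, 165 and 186 CPM under CHX, at 1.75 (SE 0.22, adjusted p = 5.50e-05 by edgeR). Against 8 hpf mutants its log2 fold change was larger, at 2.99 (SE 0.24, adjusted p = 1.66e-06 by edgeR). znf574, znf1003, znf609a, znf1005, znf217 and znf45l were higher by 1.01 to 1.62, and of these znf1005, which had the fewest reads of the 6, lost the call in 11 of 21 alternatives (adjusted p up to 0.180 by edgeR). znf804a, with 1 read in bmp7-/- at 6 hpf and 41 under CHX, was 19.6 times higher, with a 95% counting interval of 3.32 to 791. It was chosen after its values were seen, and bmp7-/- 8 hpf replicate 2 stood at 0.940 CPM, between CHX libraries at 0.634 to 1.06 CPM.

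**Figure D5:**
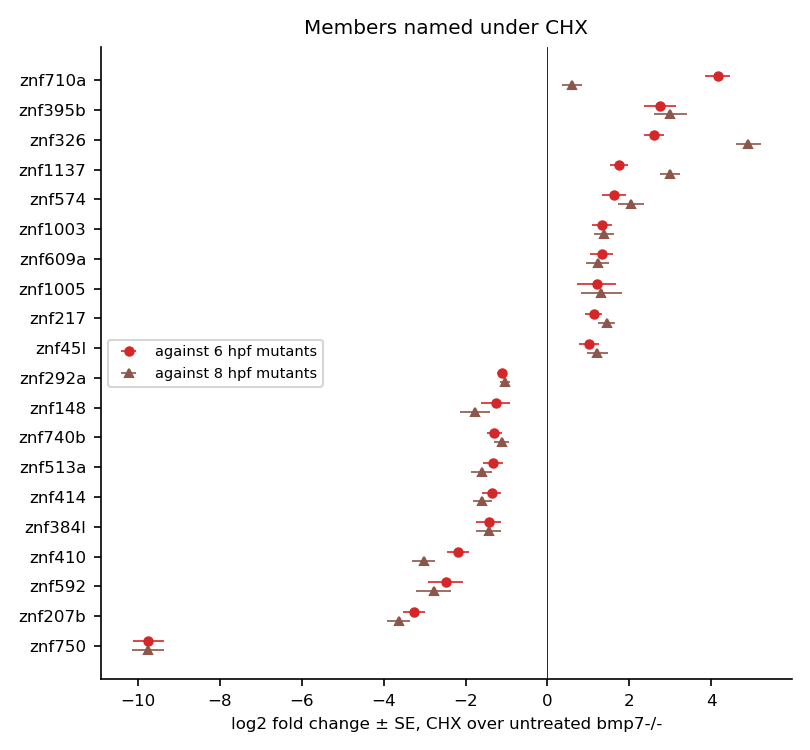
Log2 fold change with its SE (x) of CHX-treated over untreated bmp7-/- embryos at 6 hpf (circles) and 8 hpf (triangles) for the 20 znf genes named under CHX (y). Both estimates use the same 3 CHX libraries. They lie close together for most genes and furthest apart for znf710a (4.15 and 0.60), znf326 (2.61 and 4.90) and znf1137 (1.75 and 2.99). The value of znf750 rests on 2 reads under CHX.

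Maternal transcripts were also higher under CHX. The sum of the 5 maternal genes was 766 to 1280 CPM under CHX against 223 to 365 CPM in bmp7-/- at 6 hpf, and 3 of the 5 were called higher. The neural ectoderm genes sox3, sox2 and zic2a summed to 649 to 799 CPM in bmp7-/- at 6 hpf and 108 to 188 CPM under CHX, and all 3 were called lower. The non-neural ectoderm sum was 418 to 540 CPM under CHX, with 4 of 5 called higher and 1 lower than at 6 hpf. The part of these differences in the znf values was not tested. The genotype and CHX comparisons share the untreated bmp7-/- libraries, so levels are given side by side only. For znf609a, WT libraries stood at 15.6 to 30.3 CPM, untreated bmp7-/- libraries at 7.15 to 9.57 CPM and CHX libraries at 14.2 to 26.3 CPM. For znf618 these ranges were 35.9 to 62.0, 16.5 to 23.7 and 32 to 39.7 CPM. In both genes the CHX libraries lay within or close to the WT range. In znf1162, znf1156 and znf1147 they lay below it, as did those of znf207b and znf592.

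CHX embryos given BMP2/7 protein differed from those without it in few members. The protein cannot be told apart from the injection, since no library of CHX embryos injected with a vehicle was analysed. By the edgeR test without pairing of the libraries, 1 of 80 members was called, lower with BMP2/7. Of all genes 2.26% were called, 1.91% higher and 0.349% lower. An unadjusted p under 0.05 by that test was found for 5 of the 80 members, 1 higher and 4 lower. The share of all genes at that threshold was not counted, so nothing is drawn from this number. The called gene was znf1137, on chromosome 4, at 167, 165 and 186 CPM under CHX and 125.3, 110 and 118.6 CPM with BMP2/7. All 3 libraries with BMP2/7 were below all 3 without. The log2 fold change was -0.53 (SE 0.10, adjusted p = 0.0438 by edgeR), and the call was lost in 10 of 16 alternatives, among them each of the 6 that leave out a library (adjusted p from 0.0619 to 0.226). With the replicate number as a block, which pairs the CHX libraries, 3 of 80 members were called, each lower with BMP2/7, where 7.94% of all genes were called, 4.47% higher and 3.47% lower. They were znf1137 (log2 -0.53, SE 0.09, adjusted p = 0.00394 by edgeR), znf1041 (log2 -0.37, SE 0.09, adjusted p = 0.0355) and znf1117 (log2 -0.77, SE 0.16, adjusted p = 0.0167).

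All 3 lie on chromosome 4, as do 15 of the 80 tested members. By the test without the block, 1 of these 15 was called. Nothing particular to the chromosome was tested, and near copies there may share reads. znf1041 stood at 212, 259 and 248 CPM under CHX and 188, 193 and 165 CPM with BMP2/7, without overlap. znf1117 stood at 29.8, 21.5 and 6.42 CPM and 14.03, 15.2 and 3.83 CPM, so that replicate 3 was low in both groups and each library with BMP2/7 was below its same-numbered partner. Without the block this gene was at an adjusted p of 0.808 by edgeR. Over the tested members, 77 of 80 had a fitted change smaller than 0.5 on the log2 scale, and the median was -0.03, with 0.00 over all genes. In untreated embryos the genotype test called none of the 3, with znf1137 at 0.07 (SE 0.20), znf1041 at -0.13 (SE 0.13) and znf1117 at -0.17 (SE 0.55).

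The 10 members with the most reads were znf1035, znf281b, znf346, znf217, znf395a, znf865, znf185, znf292b, znf800a and znf576.2. Apart from znf217, none of these was called for the genotype. znf1035 stood at 571 and 696 CPM in WT and 438 and 528 CPM in bmp7-/- at 6 hpf, and at 748 to 912 CPM under CHX. znf281b, whose mammalian relative binds GC-rich DNA, stood at 530 to 589 CPM in WT and 524 to 712 CPM in bmp7-/- at 6 hpf and 805 to 866 CPM under CHX. znf346, a double-stranded RNA binding protein in mammals, fell under CHX from 776 and 864 CPM at 6 hpf to 411 to 505 CPM. Against 8 hpf mutants, at 507 and 514 CPM, it was not called.

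The 36 members on a list of genes with a known role included 27 with enough reads for a test. Of these 6 were called higher and 2 lower in WT, beside 16.2% and 11.6% of all genes, and 6 higher and 14 lower under CHX than at 6 hpf, beside 32.4% and 30.1%. The 12 members too sparse for the test of genotype were znf131, znf143b, znf219, znf277, znf362b, znf385b, znf516, znf668, znf703, znf704, znf804a and znf831. Their highest levels in any library were between 0.0588 CPM (znf143b, 1 read in all 14 libraries) and 1.68 CPM (znf831). znf703, known as Nlz1, had 6 reads in all, so its expression was not measurable at this depth. znf598, a ubiquitin ligase that acts on collided ribosomes in mammals, passed neither the genotype test (log2 0.21, SE 0.19) nor the CHX test against 6 hpf (log2 0.19, SE 0.14). Against 8 hpf it was called lower, at -0.38 (SE 0.14, adjusted p = 0.0345 by edgeR). The call was lost at the threshold of 0.01 and in 13 of the 20 other alternatives. Among these were leaving out either bmp7-/- 8 hpf library (adjusted p = 0.0630 and 0.192 by edgeR) and scaling by library size alone, which turned the value positive.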

How the data were processed

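The authors made stranded polyadenylated-RNA libraries from whole embryos, aligned reads to GRCz11 and deposited raw read counts per RefSeq transcript, the values used here. The submitters' processing notes name edgeR. Aligner settings, the treatment of reads that match several genes and the use of strand in counting were not given in the sources used here. The deposited table also holds 14 columns of normalized values per sample and the authors' comparisons, which were not used. Gene symbols turned into dates (14) were restored by transcript.

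Counts were tested in R 4.3.3 with edgeR 4.0.16 (TMM factors, filterByExpr with a minimum count of 10, quasi-likelihood test, Benjamini-Hochberg adjustment over all transcripts tested). The 8 untreated libraries gave a fit of 4 groups, the 10 bmp7-/- libraries a fit of 4 groups and the 6 CHX libraries a fit of 2 groups. These fits tested 10029, 10322 and 9444 genes. Standard errors were taken from the F statistic. The method was tested on simulated data. A level near 0 is a ratio with a 95% exact interval, or a bound at 3 counts over the group, and covers counting error only.

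Members and lists were chosen with earlier results of these data known. Named are up to 10 called members per direction for genotype and for CHX (called the same way against both stages) where the average log2 CPM reached 1 and the groups did not overlap, all members called for BMP2/7, up to 5 per direction for stage, the 10 with the most reads, and a list with known roles. Exceptions are marked as chosen after their values were seen.

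Same-numbered CHX libraries deviated together (correlations 0.348, 0.654 and 0.593), so the number was taken to pair them, from the data rather than the labels. Alternatives were the likelihood ratio test, DESeq2 1.42.0, RLE factors, library size alone, other filters (none, or a minimum count of 30), a replicate block, transcripts summed per gene, other sets of libraries, a threshold of 0.01 and leaving out each library.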

Additional observations from a re-analysis of the deposited data

Results flagged for a closer look

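In 3 of the 81 tested members (3.7%) the order of the genotypes turned between the stages without overlap at either, as it did in 2.81% of all genes. In znf1041 and znf326 both WT libraries lay below both bmp7-/- libraries at 6 hpf and above them at 8 hpf. The reverse held in znf408, at 13.5 and 12.8 CPM in WT against 12.4 and 12.3 CPM in bmp7-/- at 6 hpf and 8.05 and 9.65 against 11.5 and 9.93 CPM at 8 hpf. znf408 is outside the naming rule and was chosen after its values were seen. The test of the difference itself was not passed by these members, nor by any other of the 10029 genes tested. The change in the log2 fold change of WT over bmp7-/- from 6 to 8 hpf was 0.43 for znf1041 (standard error 0.26, adjusted p = 0.917 by edgeR), 0.93 for znf326 (standard error 0.52, adjusted p = 0.902), and -0.39 for znf408 (standard error 0.39, adjusted p = 0.980).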

How the results depend on the processing

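Without replication beyond 2 libraries in the untreated groups, counts of calls depended on the test. At 6 hpf, the 9 members called between genotypes became 15 with the likelihood ratio test, 16 with the replicate block, 19 with all 14 libraries in the fit and 3 at a threshold of 0.01. At 8 hpf, the 5 became 12 with the likelihood ratio test, 11 each with DESeq2, the replicate block and all 14 libraries, 8 without a filter and 3 at 0.01. Over both stages the 24 became 10 at 0.01, and 29 with the replicate block. The 46 under CHX against 6 hpf became 30, and the 10 for stage became 4, at 0.01. The stage count was 15 with all 14 libraries. For BMP2/7 the 1 call became 3 with the replicate block and 0 at 0.01, with library size alone, with a minimum count of 30 and with all 14 libraries. Leaving out a library gave 13 to 22 members over both stages, 3 to 11 at 6 hpf, 3 to 7 at 8 hpf, 38 to 45 and 35 to 49 under CHX, 3 to 12 for stage, and 0 for BMP2/7 and for the interaction. Each count of 13 to 15 over both stages came without bmp7-/- 6 hpf replicate 2 or either bmp7-/- 8 hpf library. Under every alternative run, no member reversed its sign in the comparison that named it. Scaling by library size alone turned znf598 and znf800b, both named elsewhere, and znf1001 against 8 hpf mutants, and znf1068 against 6 hpf mutants. Same-numbered untreated libraries deviated together between the stages of a genotype (correlations 0.473 in WT and 0.347 in bmp7-/-), less so or not between genotypes (0.202 at 6 hpf and -0.017 at 8 hpf, 0.142 for WT 8 hpf with bmp7-/- 6 hpf and 0.0708 for WT 6 hpf with bmp7-/- 8 hpf). With 2 libraries a group this is a hint from the data, and these numbers were not taken to pair the samples. The tests of genotype over both stages and of stage thus treated same-numbered libraries of a genotype as separate. Their p-values do not allow for a link between these libraries. At this depth 12 members, none above 1.68 CPM in any library, were too sparse to test for genotype.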

Other observations

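In several members the libraries of a group differed along their replicate number. znf1117 stood at 5.87 and 18.8 CPM in WT and 7.94 and 21.1 CPM in bmp7-/- at 6 hpf, and at 5.10 and 13.7 CPM and 3.92 and 15.9 CPM at 8 hpf. Replicate 2 was thus the higher in all 4 untreated groups, and in the CHX groups replicate 3 was the lowest. znf1015 stood at 8.93 and 24.1 CPM in bmp7-/- at 6 hpf and 8.71 and 25.7 CPM at 8 hpf, while its WT libraries lay between 19.2 and 26.0 CPM. In the CHX groups its replicate 3, at 4.04 and 3.08 CPM, stood below the others at 15.9 to 18.1 CPM. znf1077 stood at 3.30 and 10.7 CPM in WT at 6 hpf and 2.75 and 8.51 CPM at 8 hpf, again with replicate 2 the higher. Over the members with at least 20 reads in a group, the median gap between the replicates was 0.165 to 0.359 on the log2 scale. These genes were chosen after their values were seen.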
